A study of Mus musculus with 18 samples.

Results

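The Ms4a genes encode small proteins that cross the cell membrane several times and sit in a cluster on mouse chromosome 19. They are mostly genes of blood-derived cells: the best known, Ms4a1, encodes CD20, the B cell surface protein that rituximab binds, and several others mark monocytes and macrophages. Other members are made by T cells, and some help tune signals from immune receptors that they accompany in the membrane. In liver these cells are a minority beside the hepatocytes, so the transcripts are read at low counts. The family was taken here as 10 symbols, of which 8 matched an Ensembl identifier in the table of 37620 genes, and all 8 had enough counts to be tested, as had 14226 genes in all. The expression of Ms4a4a and Ms4a14 was not analysed here.

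RNA was sequenced from livers of female mice in 3 groups of 6 libraries. The first group was old mice given ouabain at 1 mg/kg, a plant glycoside that inhibits the sodium pump of the cell membrane and has been studied as a senolytic drug. The second was old mice given vehicle, labelled as saline. The third was young mice with no treatment. The old mice were 24 months of age and the young mice 7 weeks. Treatment ran for 12 weeks in rounds of 4 treatments a week separated by 2 weeks of rest, and tissue was collected 3 days after treatment ended. The design describes 16 old mice, and neither the choice of the 12 old livers used here nor the strain was stated in the labels. Age and handling differ together between old and young mice. The labels do not say that each library is a separate animal, so "6 livers" stands for 6 libraries, and p-values measure only the spread between libraries, part of which may be technical.

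Library totals were 4201251 to 10695176 counts in ouabain livers, 9491555 to 10466814 in vehicle livers and 8323259 to 11113307 in young livers. Ouabain replicate 5 is the shallowest. A count of 0 is taken here to allow up to 3 counts, a convention and not a hard bound. In that library 3 counts correspond to 0.696 CPM (counts scaled to library size by the TMM method), against 0.274 to 0.389 CPM elsewhere. The tissue label was checked against 8 hepatocyte markers, whose summed level lay between 106000 and 132000 CPM in ouabain livers, 92400 and 143000 CPM in vehicle livers, and 104000 and 155000 CPM in young livers. That check rests largely on Alb, with a mean of 88300 CPM of the mean sum of 121000 CPM in ouabain livers. Among vehicle livers, replicate 4 had the highest summed level of 18 monocyte and macrophage markers (1100 CPM), and replicate 6 the lowest (371 CPM). For the 8 tested members, fits without single libraries are given where a call changed. No such fits are given for single marker genes, partner genes or other relatives of the family.

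Compared per kilobase of the longest protein-coding transcript (GENCODE M21, a later annotation than that of the counts), the family spanned more than an order of magnitude. In ouabain livers Ms4a6c led with a level of 3.55 ± 0.33 CPM per kb (SD, n = 6), followed by Ms4a4d with 2.98 ± 0.931, Ms4a6d with 2.12 ± 0.62 and Ms4a7 with 1.35 ± 0.574. Ms4a6b (0.886 ± 0.357), Ms4a1 (0.798 ± 0.794), Ms4a4c (0.459 ± 0.246) and Ms4a4b (0.191 ± 0.0847 CPM per kb) came after. Vehicle livers had Ms4a6c (6.91 ± 2.86 CPM per kb), Ms4a4d (4.86 ± 0.901), Ms4a6d (3.95 ± 1.46), Ms4a7 (3.16 ± 1.19) and Ms4a6b (2.13 ± 0.9) in the same order, then Ms4a4c (1.14 ± 0.748), Ms4a1 (0.882 ± 0.668) and Ms4a4b (0.602 ± 0.604). In young livers Ms4a4d came first with 2.4 ± 0.468 CPM per kb, ahead of Ms4a6c with 2.07 ± 0.432, and Ms4a7 (0.378 ± 0.105) stood below Ms4a6b (0.537 ± 0.161). Ms4a4c (0.334 ± 0.187), Ms4a1 (0.15 ± 0.116) and Ms4a4b (0.119 ± 0.0496) were lowest there. Neighbours in each order overlapped within 1 SD, except that in young livers Ms4a6d (1.02 ± 0.487) stood below Ms4a6c. The order depends on the transcript chosen: per kilobase of its shortest transcript, Ms4a6d had a level of 4.43 in ouabain livers, 8.25 in vehicle livers and 2.13 in young livers, above Ms4a6c in each.

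In the fit of all genes, old vehicle livers had more of all 8 tested Ms4a transcripts than young livers, and ouabain livers had less than vehicle livers of 3 of them. Vehicle against young, 8 of 8 rose and none fell (edgeR quasi-likelihood test, Benjamini-Hochberg adjusted p below 0.05), where 10.9% of all tested genes rose and 8.32% fell (19.2% in all). The log2 fold changes ran from 1.01 (Ms4a4d) to 3.04 (Ms4a7), with a median of 1.97 against -0.01 over all genes. Ouabain against vehicle, 3 of 8 fell and none rose, where 0.851% of all tested genes fell and 0.991% rose (1.84% in all), and the median log2 fold change of the 8 was -1.07 against -0.01 over all genes. At an unadjusted p below 0.05, 7 of 8 were lower and 0 higher, where 10.8% of all tested genes were lower and 9.31% higher. DESeq2 gave 6 of 8 that fell and 0 that rose, where 2.35% of all genes fell and 1.94% rose. Ouabain against young, 1 of 8 rose, where 0.738% of all tested genes rose and 0.387% fell (1.12% in all), with log2 fold changes of 0.33 to 2.31 and a median of 0.77. DESeq2 gave 2 that rose there, where 1.94% of all genes rose. The 3 comparisons share their groups in pairs and are not independent. The filter on low counts kept Ms4a1, Ms4a4b, Ms4a4c and Ms4a7 through the old livers, since their mean young levels were 0.46 to 0.595 CPM. Ms4a4b and Ms4a4c were low in ouabain livers too (means of 0.909 and 0.792 CPM). Mostly vehicle livers (2.86 and 1.97 CPM) carried these genes past the filter. The counts over the 8 are therefore descriptions in every comparison, ouabain against vehicle included. Fewer cells of a type and less RNA per cell cannot be told apart in these bulk samples.

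**Figure D1:**
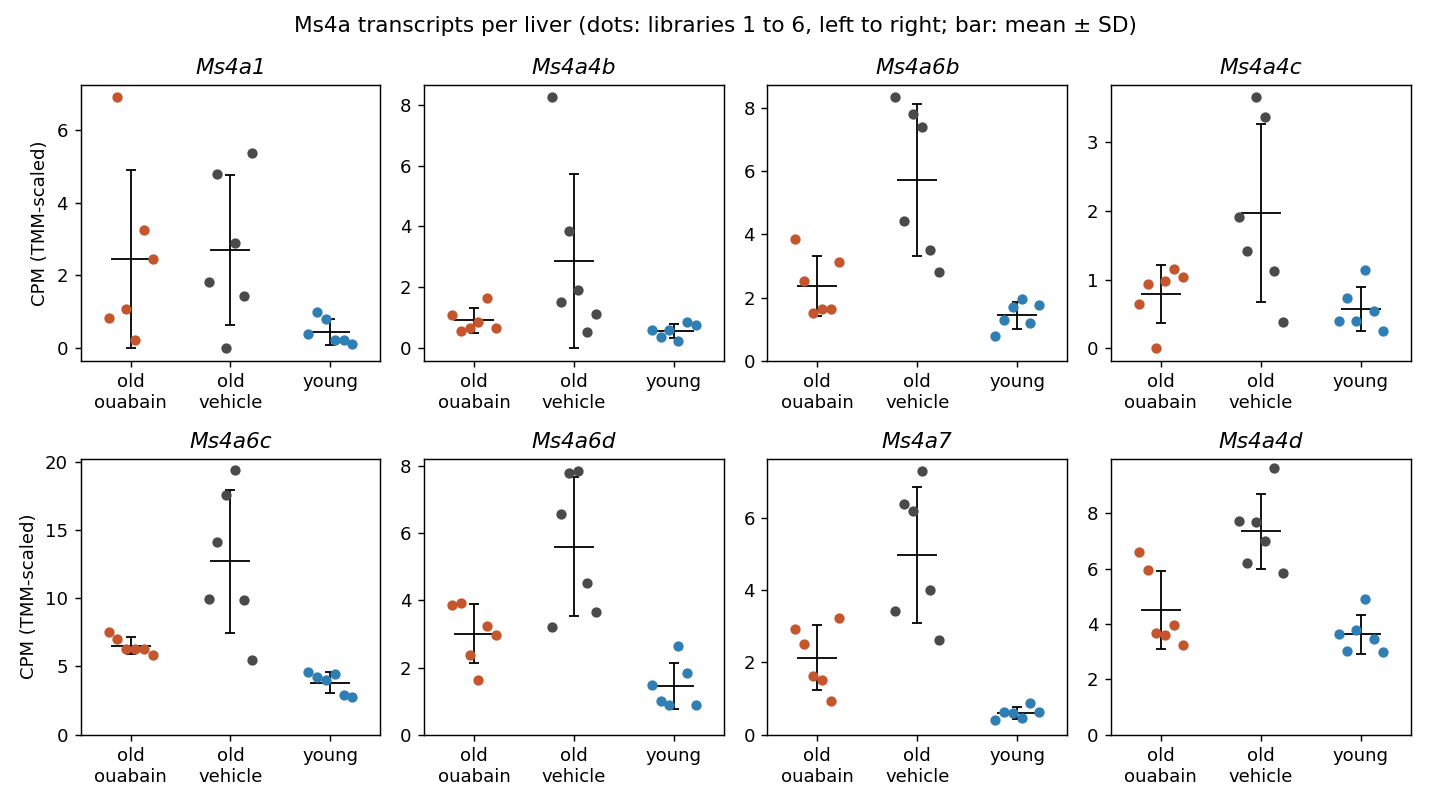
Level of each of 8 Ms4a genes (vertical axis, TMM-scaled CPM, linear) in ouabain, vehicle and young livers. Each dot is 1 library, in the order of the replicate numbers, and the bars are the mean ± SD of 6 libraries. Ms4a6c lies between 5.83 and 7.52 CPM in ouabain livers and spreads from 5.45 to 19.4 CPM in vehicle livers.

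Ms4a1 (ENSMUSG00000024673) encodes CD20, the B cell surface protein. Its level had a lowest value of 0.218, a median of 1.77 and a highest of 6.89 CPM in ouabain livers, of 0, 2.34 and 5.36 CPM in vehicle livers, and of 0.125, 0.31 and 1 CPM in young livers. The ouabain maximum is replicate 2, with 74 counts, and the vehicle minimum is replicate 3, with 0 counts, which allows up to 0.304 CPM. Ouabain and vehicle livers overlapped, and the log2 fold change was -0.16 (SE 0.68, edgeR adjusted p = 0.923). The sign turned without any of 5 libraries, reaching 0.15 without vehicle replicate 6, and without ouabain replicate 2 the value was -0.94 (adjusted p = 0.485). Vehicle against young livers, Ms4a1 rose by 2.47 on the log2 scale (SE 0.82, edgeR adjusted p = 0.0441), with 5 of 6 vehicle libraries above every young one. The sixth, replicate 3, had 0 counts, and the 0 to 0.304 CPM that this allows overlaps the young range of 0.125 to 1 CPM. The call was not stable. It was lost with limma voom (1.80, adjusted p = 0.371), with no filter (0.0855) and without vehicle replicate 4 and ouabain replicate 5 together (0.0801). It held in 7 of 18 fits without 1 library and was lost without ouabain replicate 5 or 6, vehicle replicate 1, 2, 4 or 6, or young replicate 1, 3, 4, 5 or 6 (edgeR adjusted p = 0.0518 to 0.0927). Ouabain against young livers, the log2 fold change was 2.31 (SE 0.84, adjusted p = 0.188).

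Other B cell genes, summed, were also highest in ouabain replicate 2, but followed Ms4a1 only in part. The summed level of 14 B cell markers was 74.1 CPM in ouabain replicate 2, against 14.3 to 28.9 CPM in the other ouabain livers, 20.9 to 57.1 CPM in vehicle livers and 10.8 to 16.7 CPM in young livers. Of the 8 B cell markers tested, 3 rose in vehicle against young livers (Cd72 by 1.53, Bank1 by 1.42 and Cd22 by 0.84 on the log2 scale, edgeR adjusted p = 0.000636, 0.0203 and 0.0473), and 0 changed in ouabain against vehicle livers by edgeR, with 2 lower and 0 higher at an unadjusted p below 0.05 and 0 by DESeq2. None of the 14 markers was at 0 in any group. Once each group's mean was removed, the genes closest to Ms4a1 among 11885 named genes were Siglecg, an inhibitory lectin of B cells, with a Pearson r of 0.884 over 18 libraries, Cd79a, a chain of the B cell receptor (0.877), and Spib, a B cell transcription factor (0.849); the last pair are also among the 14 markers. With the sum of the 14 markers r was 0.678 (Spearman rho 0.61). Without the 2 libraries farthest from the median of that sum r was 0.519. Among vehicle livers Ms4a1 was highest in replicate 6 (5.36 CPM, marker sum 37.8 CPM), while replicate 4 had 2.88 CPM with a sum of 51.7 CPM. These r values describe likeness between genes that share libraries and depth, and carry no test. Ms4a1 itself equalled 1.53% to 12% of the B cell marker sum in ouabain livers, 0% to 14.2% of it in vehicle livers and 0.746% to 7.34% of it in young livers, so those shares overlapped. The part of B cell number in the Ms4a1 values was not tested.

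Ms4a4b (ENSMUSG00000056290) is a T cell member of the family that tunes T cell receptor signals in mice. Its lowest, median and highest values were 0.558, 0.76 and 1.63 CPM in ouabain livers, 0.513, 1.71 and 8.24 CPM in vehicle livers, and 0.229, 0.592 and 0.865 CPM in young livers. The vehicle mean rests on replicate 1 with 82 counts (8.24 CPM) and replicate 3 with 38 counts (3.85 CPM), while the other vehicle livers were at 0.513 to 1.92 CPM. Vehicle against young livers, Ms4a4b rose by 2.32 on the log2 scale (SE 0.54, edgeR adjusted p = 0.00523), and by 1.64 without vehicle replicate 1, past the threshold in 18 of 18 fits without 1 library. For ouabain against vehicle livers the log2 fold change was -1.71 (SE 0.52, edgeR adjusted p = 0.0867), the largest drop of the 8 in size but with every ouabain liver inside the vehicle range. It was -1.04 (adjusted p = 0.182) without vehicle replicate 1, and past the threshold without vehicle replicate 5 (0.0396) or 6 (0.0431) and by DESeq2 (0.0364). Ouabain against young livers, it was 0.61 (SE 0.62, adjusted p = 0.67).

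T cell markers were highest in the same vehicle livers. Their sum over 12 genes was 41.4 CPM in vehicle replicate 1 and 24.1 CPM in replicate 3, and 6.39 to 13.9 CPM in the other vehicle livers, against 3.62 to 5.86 CPM in young livers. In ouabain livers the sum was 7.52 to 16.5 CPM. All 5 T cell markers tested rose in vehicle against young livers, led by Cd8a (2.86, edgeR adjusted p = 0.00785) and Cd3g (2.13, adjusted p = 0.00411), and 0 of 5 changed in ouabain against vehicle livers by edgeR or by DESeq2, with 2 lower at an unadjusted p below 0.05. No T cell marker was at 0 in any group. Within groups Ms4a4b followed the T cell sum with a Pearson r of 0.797 (Spearman rho 0.639). Without the 2 libraries farthest from the median of that sum r was 0.655. Ms4a4b had an r of 0.6 with the summed NK cell markers and 0.487 with the summed neutrophil markers. Without the 2 farthest libraries of each sum these were 0.603 and 0.562, so the likeness of Ms4a4b was not to T cell markers alone. Its closest genes were Psmf1, a proteasome inhibitor (0.858), Lck, the kinase that starts T cell receptor signalling and itself a listed T cell marker (0.848), and Mir22hg (0.832). Ms4a4b equalled 5.5% to 14.6% of the T cell sum in ouabain livers, 5% to 19.9% of it in vehicle livers and 5.13% to 16.2% of it in young livers. The part of T cell number in these values was not tested.

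Ms4a6b (ENSMUSG00000024677) is found in both T cells and macrophages of the mouse. It was at 1.52, 2.07 and 3.85 CPM (lowest, median, highest) in ouabain livers, at 2.82, 5.9 and 8.34 CPM in vehicle livers, and at 0.783, 1.48 and 1.95 CPM in young livers. Of the ouabain livers 4 of 6 lay below every vehicle liver, and every vehicle liver lay above every young one. Ms4a6b fell in ouabain against vehicle livers by 1.23 on the log2 scale (SE 0.29, edgeR adjusted p = 0.0327), to 2.37 ± 0.958 CPM in ouabain livers, against 5.71 ± 2.41 CPM in vehicle livers (SD, n = 6 each). It rose in vehicle against young livers by 1.99 (SE 0.31, adjusted p = 0.00017), and for ouabain against young livers the value was 0.76 (SE 0.33, adjusted p = 0.25). Within groups it followed T cell markers (Pearson r 0.533, rho 0.492, but r 0.266 without the 2 farthest libraries) as well as monocyte and macrophage markers (0.542, rho 0.525, and 0.525). Vehicle replicate 1, the liver with most T cell transcripts, was also its highest value. Its closest genes were Cyfip1 (0.786), Fgd3 (0.771) and Ube2n (0.768).

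Ms4a6c (ENSMUSG00000079419) is a monocyte and macrophage gene, with the highest level of the 8 in both old groups per kilobase of the longest transcript. Its lowest, median and highest values were 5.83, 6.3 and 7.52 CPM in ouabain livers, 5.45, 12 and 19.4 CPM in vehicle livers, and 2.74, 4.09 and 4.6 CPM in young livers. The ouabain livers were close to each other, with a coefficient of variation of 9.3%, against 41.4% in vehicle livers and 20.8% in young livers. All ouabain livers lay above all young ones and below 5 of the 6 vehicle livers, with vehicle replicate 6 the exception. Ms4a6c fell in ouabain against vehicle livers by 0.95 on the log2 scale (SE 0.22, edgeR adjusted p = 0.0327). It rose in vehicle against young livers by 1.73 (SE 0.23, adjusted p = 5.88e-05), and for ouabain against young livers it was 0.77 higher (SE 0.24), which did not pass (adjusted p = 0.125). That last value passed when only those 12 libraries were fitted (adjusted p = 0.0141) or without vehicle replicate 6 (0.0435). The genes nearest to it were Zeb2os (0.894), Tpm3-rs7 (0.878) and Irf5, a transcription factor of inflammatory macrophages (0.869).

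Ms4a6d (ENSMUSG00000024679) is a macrophage member. It was at 1.63, 3.11 and 3.91 CPM (lowest, median, highest) in ouabain livers, 3.22, 5.54 and 7.87 CPM in vehicle livers, and 0.873, 1.24 and 2.63 CPM in young livers. The vehicle livers lay apart, with replicates 2, 3 and 4 at 6.57 to 7.87 CPM and replicates 1, 5 and 6 at 3.22 to 4.51 CPM, inside or just above the ouabain range. Vehicle against young livers it rose by 1.95 on the log2 scale (SE 0.30, edgeR adjusted p = 0.000151), with no overlap. For ouabain against vehicle livers the log2 fold change was -0.90 (SE 0.28, adjusted p = 0.0867), and it passed without vehicle replicate 6 (0.0465) and by DESeq2 (0.0497). For ouabain against young livers it was 1.05 (SE 0.31, adjusted p = 0.102), which passed by DESeq2 (0.0443). Its likest genes were Rbm8a2 (0.893), Snx20, a sorting protein of leukocytes (0.827), and Ncf1, a subunit of the phagocyte oxidase (0.821).

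Ms4a7 (ENSMUSG00000024672), used as a marker of macrophages, had the largest log2 fold change of the 8 between vehicle and young livers. Its lowest, median and highest values were 0.929, 2.07 and 3.24 CPM in ouabain livers, 2.63, 5.09 and 7.29 CPM in vehicle livers, and 0.391, 0.61 and 0.865 CPM in young livers. Young livers held 4 to 8 counts each, so their level is imprecise. The 3 groups were ordered, with every ouabain liver above every young one and 4 of 6 ouabain livers below every vehicle one. Ms4a7 rose in vehicle against young livers by 3.04 on the log2 scale (SE 0.32, edgeR adjusted p = 3.89e-06, 8.23-fold). It fell in ouabain against vehicle livers by 1.18 (SE 0.27, adjusted p = 0.0296), and it rose in ouabain against young livers by 1.86 (SE 0.34, adjusted p = 0.0119), the 1 member to do so. The last call held in 18 of 18 fits without 1 library and missed with limma voom (0.0546). With only those 12 libraries Ms4a7 did not pass the filter on low counts. P2ry6, a nucleotide receptor of macrophages (0.855), Fam167a (0.847) and Evi2a (0.841) were nearest to it.

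Ms4a4c and Ms4a4d complete the set. Ms4a4c (ENSMUSG00000024675), a gene of monocytes, was at 0, 0.955 and 1.16 CPM (lowest, median, highest) in ouabain livers, at 0.376, 1.66 and 3.65 CPM in vehicle livers, and at 0.249, 0.469 and 1.14 CPM in young livers. Its 0 counts in ouabain replicate 3 allow up to 0.325 CPM. It rose in vehicle against young livers by 1.75 on the log2 scale (SE 0.51, edgeR adjusted p = 0.0204), lost without vehicle replicate 3 (1.48, adjusted p = 0.0579), without vehicle replicate 4 and ouabain replicate 5 together (1.53, 0.0585) and with limma voom (1.49, 0.133). Ouabain against vehicle livers it was at -1.36 (SE 0.50, adjusted p = 0.141; 0.0493 without vehicle replicate 6), and ouabain against young livers at 0.39 (SE 0.58, adjusted p = 0.787). Fnbp1 (0.861), Gpsm3 (0.848) and Klhl6 (0.844) were its nearest genes. Ms4a4d (ENSMUSG00000024678) was the steadiest of the 8 in old vehicle livers, with a coefficient of variation of 18.6%. Its values were 3.24, 3.82 and 6.6 CPM in ouabain livers, 5.83, 7.35 and 9.64 CPM in vehicle livers, and 2.99, 3.54 and 4.92 CPM in young livers. The ouabain livers fell into replicates 1 and 2 at 6.6 and 5.96 CPM, inside the vehicle range, and 4 livers at 3.24 to 3.95 CPM, below it and inside the young range. Its rise in vehicle against young livers was 1.01 (SE 0.19, edgeR adjusted p = 0.000712), without overlap. Ouabain against vehicle livers it was at -0.68 (SE 0.18, adjusted p = 0.0585), just outside the threshold, and it passed without ouabain replicate 1 (-0.83, 0.0181) or 2 (-0.79, 0.0445) or vehicle replicate 6 (-0.75, 0.0313) and by DESeq2 (-0.69, 0.0235). For ouabain against young livers it was at 0.33 (SE 0.19, adjusted p = 0.4). Atp1b3 (0.799), a beta subunit of the sodium pump, was its nearest gene, followed by Fam217b (0.738) and S100a6 (0.709).

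**Figure D2:**
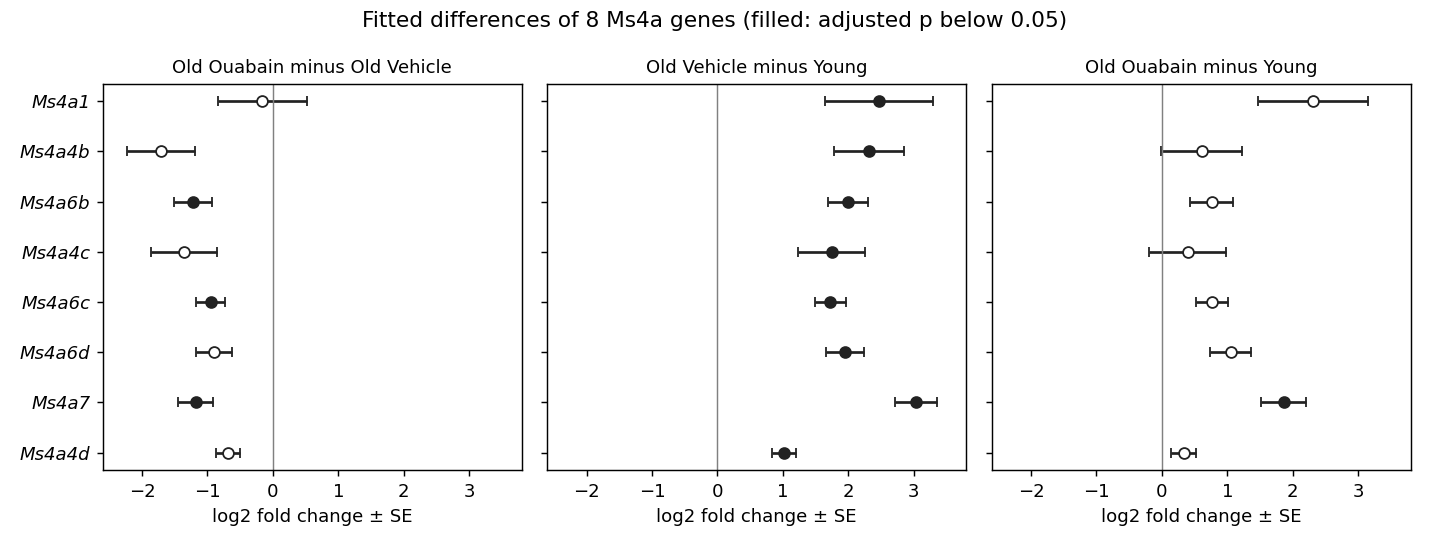
Fitted log2 fold change (horizontal axis) of 8 Ms4a genes in the 3 comparisons, with bars of 1 SE and filled points for an edgeR adjusted p below 0.05. All 8 points are filled for vehicle minus young, 3 for ouabain minus vehicle (Ms4a6b, Ms4a6c and Ms4a7) and 1 for ouabain minus young (Ms4a7).

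Counted over all genes, every library of vehicle livers was above every young one for 4.59% of tested genes and for 5 of the 8 members (Ms4a4d, Ms4a6b, Ms4a6c, Ms4a6d and Ms4a7). In ouabain against vehicle livers complete separation downward was seen for 0.928% of tested genes and for 0 members, so the 3 that passed the test also overlapped. Separation of ouabain above young livers was seen for 1.48% of tested genes and for 2 members, Ms4a6c and Ms4a7. The ouabain calls depended on single libraries. The count of members that fell was 3 with all libraries, 0 without ouabain replicate 3, 4 or 5 or vehicle replicate 3 or 4, 1 without ouabain replicate 6 or vehicle replicate 2, and 7 without vehicle replicate 6. Ms4a7 was lost without ouabain replicate 3, 4 or 5 or vehicle replicate 2, 3 or 4 (edgeR adjusted p = 0.0619 to 0.0865). Ms4a6c was lost without ouabain replicate 3, 4, 5 or 6 or vehicle replicate 2, 3 or 4 (0.0679 to 0.0889), and Ms4a6b without any ouabain replicate from 2 to 6 or vehicle replicate 1, 3 or 4 (0.0506 to 0.1). The fold changes themselves moved less, from -1.32 to -1.04 for Ms4a7, -1.12 to -0.80 for Ms4a6c and -1.44 to -1.09 for Ms4a6b.

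Markers of monocytes and macrophages moved in the same direction as the myeloid members. Their sum over 18 genes was 236 to 598 CPM in ouabain livers, 371 to 1100 CPM in vehicle livers and 159 to 221 CPM in young livers, and none was at 0. Of the 18, all rose in vehicle against young livers, and 3 fell in ouabain against vehicle livers: Itgax, the integrin CD11c (-1.25, edgeR adjusted p = 0.0138), Ccr2, the chemokine receptor of monocytes (-1.21, adjusted p = 0.0348), and Mpeg1, a pore-forming protein of macrophages (-0.99, adjusted p = 0.0358). DESeq2 gave 7 that fell, and 14 of 18 were lower at an unadjusted p below 0.05, while the median edgeR log2 fold change was -0.96. In ouabain against young livers 1 of 18 rose, the fractalkine receptor Cx3cr1 (2.83-fold, adjusted p = 0.0141), against 8 by DESeq2 and 15 higher at an unadjusted p below 0.05. Kupffer cell markers, 12 in all, summed to between 426 and 1110 CPM in ouabain livers, 498 and 2060 CPM in vehicle livers, and 278 and 446 CPM in young livers. Of 11 tested, 7 rose in vehicle against young livers and 0 changed in ouabain against vehicle livers by edgeR or DESeq2, with 2 lower at an unadjusted p below 0.05. Neutrophil markers moved too: 7 of 8 rose in vehicle against young livers, and 0 passed in ouabain against vehicle livers by edgeR (1 lower by DESeq2, 5 lower at an unadjusted p below 0.05).

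Set against the monocyte and macrophage sum of the same liver, the ranges of the myeloid members overlapped between ouabain and vehicle livers. Mpeg1, Lyz2 and Csf1r made up most of that sum, with means of 181, 180 and 94.4 CPM of 670 CPM in vehicle livers. Mpeg1 is itself among the markers that fell in ouabain against vehicle livers, so the shares say little about the less abundant markers. Ms4a6c was a median of 1.74% of that sum in ouabain livers (1.17% to 2.66%), 1.95% in vehicle livers (1.47% to 2.16%) and 2.04% in young livers (1.56% to 2.35%). Ms4a6d was a median of 0.812% in ouabain, 0.888% in vehicle and 0.611% in young livers. Ms4a7 was a median of 0.566% in ouabain (0.279% to 0.878%), 0.725% in vehicle (0.661% to 0.898%) and 0.321% in young livers (0.185% to 0.545%). On this scale every vehicle liver was above every young one, while the ouabain range overlapped both. The young shares of Ms4a7 rest on 4 to 8 counts per library. Ms4a6b was a median of 0.595% in ouabain (0.42% to 0.842%), 0.762% in vehicle (0.621% to 1.81%) and 0.852% in young livers (0.371% to 0.997%). Ms4a4c was a median of 0.218% in ouabain (0% to 0.348%), 0.276% in vehicle (0.101% to 0.414%) and 0.283% in young livers (0.142% to 0.562%). The ouabain median lay below the lowest vehicle value for Ms4a7 and Ms4a6b, but not for Ms4a6c, Ms4a6d or Ms4a4c. These shares describe the libraries and were not tested, nor was the part of cell number in the Ms4a differences.

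**Figure D3:**
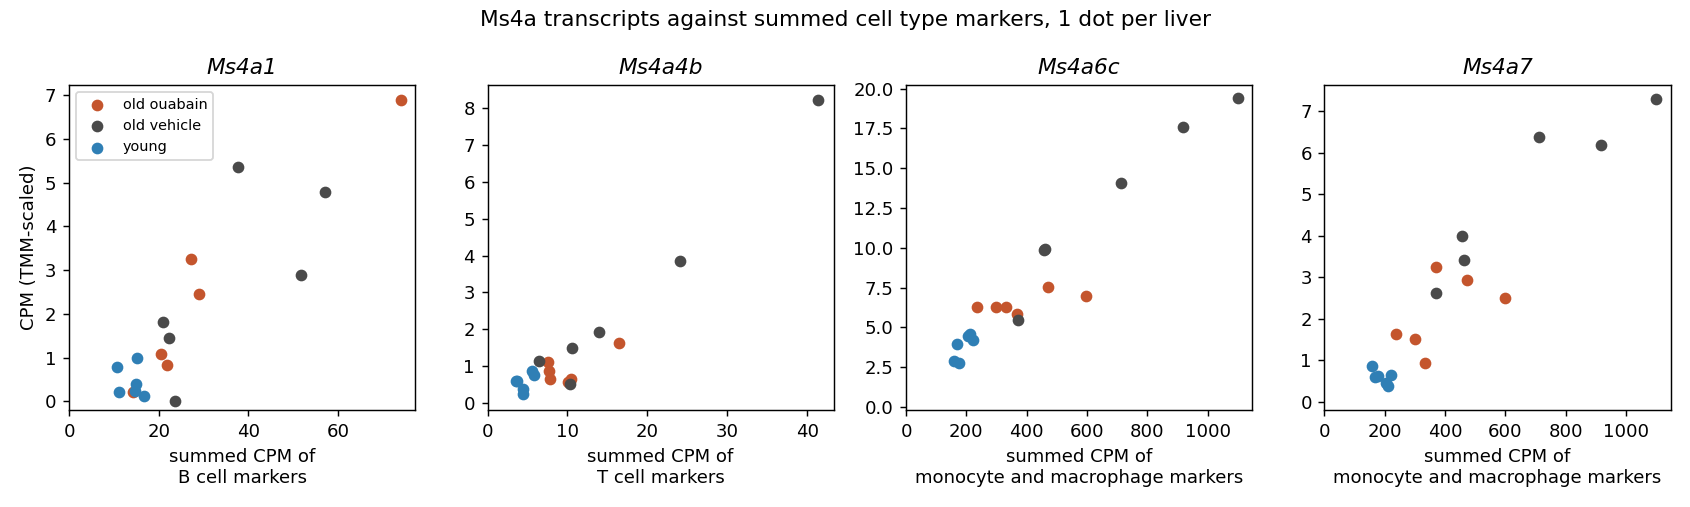
Level of Ms4a1, Ms4a4b, Ms4a6c and Ms4a7 (vertical axis, TMM-scaled CPM) against the summed CPM of B cell, T cell, or monocyte and macrophage markers of the same liver (horizontal axis), 1 dot per library, coloured by group. Vehicle replicate 1 stands alone in Ms4a4b at 8.24 CPM with a T cell sum of 41.4 CPM, and vehicle replicate 4 has the highest Ms4a6c (19.4 CPM) and macrophage sum (1100 CPM).

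Members varied together within groups to different extents. With group means removed, the Pearson r over 18 libraries among Ms4a4c, Ms4a6b, Ms4a6c, Ms4a6d and Ms4a7 ran from 0.321 (Ms4a6b with Ms4a6d) to 0.622 (Ms4a4c with Ms4a6c). Ms4a4d had 0.124 (Ms4a7) to 0.461 (Ms4a6d) with these genes. Ms4a1 had an r of -0.297 to -0.022 with the other 7, and Ms4a4b was closest to Ms4a6b (0.433). With the monocyte and macrophage sum, r was 0.796 for Ms4a6c (rho 0.781, and 0.799 without the 2 farthest libraries), 0.684 for Ms4a4c, 0.672 for Ms4a6d and 0.643 for Ms4a7, but 0.341 for Ms4a4d and 0.015 for Ms4a1. With the Kupffer cell sum it was 0.758 for Ms4a6d, the highest of the 8. All these values come from the same 18 libraries, share their depth, and are descriptions without a test. Leaving out vehicle replicate 4 moved Ms4a6c with Ms4a4c to 0.568.

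**Figure D4:**
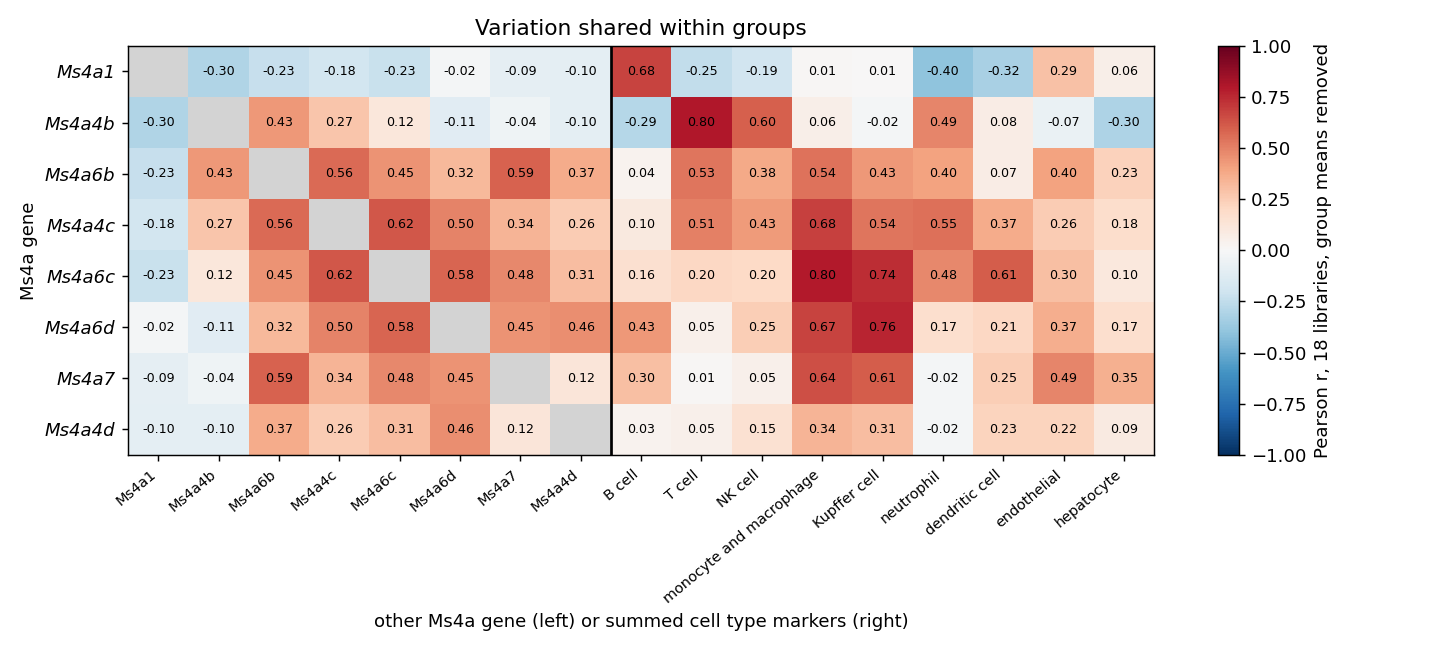
Pearson r of log2 CPM over 18 libraries after removal of group means (colour and printed value), for each of 8 Ms4a genes (rows) with the other Ms4a genes (left columns) and with summed cell type markers (right columns). The highest value of Ms4a1 is with the B cell sum (0.68), that of Ms4a4b with the T cell sum (0.80), and that of Ms4a6c with the monocyte and macrophage sum (0.80).

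A list of partner and signalling genes, written from general knowledge, rose in vehicle against young livers as well, where 10.9% of all tested genes rose. All 18 monocyte and macrophage markers rose too, so the rise was not particular to this list. The partner links named below are to MS4A4A, and Ms4a4a was not analysed here. Of 10 tested, all 10 rose, among them Trem2, a lipid receptor of macrophages whose shedding human MS4A4A influences (log2 fold change 3.17, edgeR adjusted p = 0.000179), and Clec7a, the beta-glucan receptor Dectin-1 that MS4A4A accompanies (1.96, adjusted p = 0.00057). The adaptors Fcer1g (2.02, adjusted p = 0.00134) and Tyrobp (1.70, adjusted p = 0.00242) and the kinases Syk (1.85, adjusted p = 0.00191) and Btk (1.97, adjusted p = 0.000744) were in the same list. In ouabain against vehicle livers 0 of 10 passed by edgeR and 1 by DESeq2, with 7 lower and 0 higher at an unadjusted p below 0.05, and Tlr4, the endotoxin receptor, was nearest to the threshold (-0.80, adjusted p = 0.055). In ouabain against young livers Trem2 rose (2.17, adjusted p = 0.0371) and the other 9 did not pass by edgeR, while 6 rose by DESeq2 and 7 were higher at an unadjusted p below 0.05.

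Several members arose by duplication and resemble each other, which bears on the counts. Of all 50-base windows of the annotated transcripts (GENCODE M21), 8.19% of those of Ms4a4c occur letter for letter in another Ms4a gene, most of them in Ms4a4b, and 5.85% of those of Ms4a6c, all of them in Ms4a6b. The share was 3.44% for Ms4a6b, 2.31% for Ms4a6d, 2.24% for Ms4a4b and 0.546% for Ms4a4d, and no window of Ms4a1 or Ms4a7 was shared. How the authors' counting treated reads that match both genes is not stated in the labels, so the split of counts between Ms4a4b and Ms4a4c, and between Ms4a6b and Ms4a6c, is uncertain. Promoter windows were taken from RefSeq (build GRCm38.p6, 250 bases before to 50 after the start) for 8 of the 10 symbols. Among 28 pairs of these windows the aligned identity was 72.9% for Ms4a4b with Ms4a4c, 51.2% for Ms4a6b with Ms4a6c, and 44.5% to 50.5% for the rest. Identity thus set only Ms4a4b with Ms4a4c apart, while Ms4a6b and Ms4a6c stood out by a shared run of 48 bases. The windows of both pairs are shown because they are the closest relatives among genes measured apart, each with the longest run it shares with its partner in capitals, 48 bases in Ms4a6b and Ms4a6c and 20 bases in Ms4a4b and Ms4a4c. All 4 lie on the plus strand: Ms4a6b at chr19:11518309-11518608, Ms4a6c at chr19:11469118-11469417, Ms4a4b at chr19:11443308-11443607 and Ms4a4c at chr19:11407411-11407710.
Ms4a6b: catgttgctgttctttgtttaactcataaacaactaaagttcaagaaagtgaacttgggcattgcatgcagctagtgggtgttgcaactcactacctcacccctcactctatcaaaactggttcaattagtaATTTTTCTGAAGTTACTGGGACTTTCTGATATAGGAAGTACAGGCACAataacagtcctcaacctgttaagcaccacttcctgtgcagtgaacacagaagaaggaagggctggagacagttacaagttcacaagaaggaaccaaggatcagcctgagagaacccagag
Ms4a6c: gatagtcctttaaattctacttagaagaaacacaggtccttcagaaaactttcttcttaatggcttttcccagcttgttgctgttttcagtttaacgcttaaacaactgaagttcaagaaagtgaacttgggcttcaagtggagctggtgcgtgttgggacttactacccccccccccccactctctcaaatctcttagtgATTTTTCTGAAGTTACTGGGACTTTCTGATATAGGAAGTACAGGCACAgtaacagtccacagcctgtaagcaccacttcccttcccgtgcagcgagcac
Ms4a4b: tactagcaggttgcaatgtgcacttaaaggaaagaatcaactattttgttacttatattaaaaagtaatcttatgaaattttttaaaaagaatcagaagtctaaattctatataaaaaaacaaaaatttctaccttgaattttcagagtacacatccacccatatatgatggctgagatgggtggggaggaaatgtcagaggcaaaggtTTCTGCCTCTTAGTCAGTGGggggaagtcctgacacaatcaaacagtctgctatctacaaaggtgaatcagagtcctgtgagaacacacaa
Ms4a4c: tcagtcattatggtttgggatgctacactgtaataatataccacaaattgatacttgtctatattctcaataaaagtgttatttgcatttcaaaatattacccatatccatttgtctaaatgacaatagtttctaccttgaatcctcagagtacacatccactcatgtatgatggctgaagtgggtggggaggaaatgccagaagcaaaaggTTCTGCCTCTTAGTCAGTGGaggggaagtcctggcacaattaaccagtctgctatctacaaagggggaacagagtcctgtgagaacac
The shared run begins 118 bases before the start of Ms4a6b and 49 bases before that of Ms4a6c, so the annotated starts of the pair are offset. In Ms4a4b and Ms4a4c it begins 41 and 38 bases before the start.

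The pair Ms4a6b and Ms4a6c fell in ouabain against vehicle livers together with Ms4a7, whose first promoter window, the one aligned here, was at most 50.5% identical to the others. That window (chr19:11336097-11336396, minus strand) is shown with the purine-rich letters GAGGAA, the core that the myeloid and B cell factor PU.1 binds, in capitals, starting 44 bases after the start.
Ms4a7: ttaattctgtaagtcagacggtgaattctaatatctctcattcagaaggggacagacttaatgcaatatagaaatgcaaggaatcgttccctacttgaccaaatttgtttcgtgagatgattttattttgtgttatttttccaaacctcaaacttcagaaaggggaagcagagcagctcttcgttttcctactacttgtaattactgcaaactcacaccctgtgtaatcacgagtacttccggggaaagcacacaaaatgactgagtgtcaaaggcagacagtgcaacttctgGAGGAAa
The letters GAGGAA, on either strand, were found in 4 of the 9 member windows (Ms4a4b, Ms4a4c, Ms4a14 and the first of 2 for Ms4a7), against 28.3% of 32851 windows of the same length. The core of the interferon-stimulated response element was in 0 of 9, against 3.44% of all windows, and TATAAA in 2 of 9 (Ms4a4b and Ms4a14), against 13.6%. The end of GAGGAA can form the beginning of that core, so these motifs may overlap, while TATAAA shares no such stretch with the others. The windows of Ms4a6b and Ms4a6c held no GAGGAA, and Ms4a4b and Ms4a4c, which did, were not called in ouabain against vehicle livers. A match describes letters in the window and is not a binding site, and any link to the ouabain differences was not tested.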

How the data were processed

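RNA of liver was sequenced in 18 libraries, with 1 library per sample title. The submitters' processing notes name mm9, TopHat2 2.0.11 and featureCounts. The authors deposited raw counts for 37620 Ensembl genes, not normalized. The labels do not state strand, annotation release or how multi-mapped reads were treated. Symbols came from a table of gene names. Identifiers without a symbol held 1.46% of counts.

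Counts were fitted in edgeR 4.0.16 (R 4.3.3): filter with minimum count 10 for the 3 groups (14226 genes), TMM scaling, 1 fit of all libraries, robust quasi-likelihood F-test, two-sided, Benjamini-Hochberg adjusted over all tested genes, threshold 0.05. SE is the fold change over the square root of F. Log2 CPM used a prior count of 2. The fit was tested on simulated data. Library pairs within groups differed by a chi-square per gene of 4.88 to 52.4, so none is a duplicate. DESeq2 1.42.0 and limma 3.58.1 voom were alternatives. Members, lists and the rule for named genes (all members, the 3 likest genes of each, partners, and leading cell type markers) were chosen with earlier results of these data known. The lists were written from general knowledge. The CPM values that a count of 0 allows cover counting error only, while SDs and SEs include the spread between libraries.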

Additional observations from a re-analysis of the deposited data

How the results depend on the processing

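Wherever a member passed a setting's filter its direction held, except Ms4a1 in ouabain against vehicle livers, which ran from -0.94 to 0.15 (log2) without 1 library. The number of members past the threshold for ouabain against vehicle was 3, against 6 with DESeq2, 1 with limma voom, 0 with only the 12 libraries compared, 0 without vehicle replicate 4 and ouabain replicate 5 together, and 0 to 7 without 1 library. For vehicle against young it was 8, against 6 with limma voom, 6 without those 2 libraries, 6 with only the 12 libraries compared, where Ms4a1 and Ms4a4b were not tested, 7 with no filter and 7 to 8 without 1 library. For ouabain against young it was 1, against 2 with DESeq2, 0 with limma voom and 1 to 2 without 1 library. The number of all genes was 262 for ouabain against vehicle, 599 with DESeq2, 85 without those 2 libraries and 69 to 642 without 1 library. It was 2733 for vehicle against young, and 2085 to 3061 without 1 library. For ouabain against young it was 160, against 466 with DESeq2, 333 with only those 12 libraries, 103 without those 2 libraries and 51 to 612 without 1 library. The cause of these differences was not tested.

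The replicate numbers did not pair the samples: the correlation of same-numbered libraries' deviations was -0.136 to 0.158. With the replicate block 1 member fell for ouabain against vehicle (Ms4a6c), and 71 genes passed for ouabain against young. RLE size factors and both other filters kept the member counts within 1.5 times. Depth limits Ms4a1, Ms4a4b, Ms4a4c and Ms4a7 in young livers, with 1 to 11 counts each.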

Other observations

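Counts existed for 9 other MS4A-related genes, 3 of them passed the filter on low counts, and those 3 rose in vehicle against young livers. Ms4a8a (ENSMUSG00000024730), a member reported in alternatively activated macrophages of the mouse, was at 1.87 ± 1.47 CPM in ouabain livers, 3.05 ± 3.34 CPM in vehicle livers and 0.517 ± 0.221 CPM in young livers (SD, n = 6 each). Among vehicle livers it was lowest in replicate 1 (0.704 CPM) and highest in replicate 2 (9.39 CPM, 100 counts), and ouabain replicate 5 had 0 counts. It rose in vehicle against young livers by 2.56 on the log2 scale (SE 0.72, edgeR adjusted p = 0.0187). No fit of Ms4a8a without vehicle replicate 2 is given. In ouabain against vehicle livers it was at -0.64 (SE 0.61, adjusted p = 0.59).

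Tmem176a and Tmem176b, more distant relatives, were far more abundant. Tmem176b was at 256 ± 19.7 CPM in ouabain livers, 336 ± 69.6 CPM in vehicle livers and 247 ± 39.1 CPM in young livers. It rose in vehicle against young livers by 0.44 on the log2 scale (SE 0.12, edgeR adjusted p = 0.0156), and ouabain against vehicle livers it was at -0.39 (SE 0.12, adjusted p = 0.0991). Tmem176a rose by 0.46 in vehicle against young livers (adjusted p = 0.0397) and was at -0.38 in ouabain against vehicle livers (adjusted p = 0.17). In ouabain against young livers these were at 0.06 and 0.08 (adjusted p = 0.864 and 0.846).

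The genes of the family that belong to other cells were near 0. Ms4a2, the beta chain of the mast cell IgE receptor, had 0 counts over the ouabain livers, 7 over the vehicle livers and 2 over the young livers. Ms4a3, a gene of granulocyte precursors, had 9 counts over the ouabain livers, 15 over the vehicle livers and 2 over the young livers. Ms4a5, Ms4a10 and Ms4a13 had 0 counts in all libraries, which allows up to 0.274 to 0.696 CPM per library, and Ms4a15 had 1, in a vehicle liver.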
